A study of Mus musculus with 6 samples.

Results

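The mitochondrial genome of the mouse encodes its own transfer RNAs, and 21 of them were measured as separate features in an eCLIP study of mouse Gtsf1. They were all features that the deposited annotation places in the class mttRNA, 21 of the 1753368 features with any read, and membership rests on the annotation alone. Gtsf1, also called Asterix, is a zinc-finger protein that acts in piRNA-guided silencing of transposons. In eCLIP, ultraviolet light joins RNA to the proteins that touch it, the protein of interest is purified, and the RNA that stays with it is sequenced beside a sample of the lysate, the input. The cells were P19, a mouse embryonal carcinoma line, and all 6 libraries came from cultures that received a pEF plasmid by transfection. In it the EF-1alpha promoter drives mouse Gtsf1 whose C-terminus carries a TEV-Strep tag. The crosslinked libraries, 2 pull-downs and 2 inputs, came from cells irradiated at 254 nm, and the single non-crosslinked pull-down and single non-crosslinked input from unirradiated cells. The pull-downs used MagStrep XT beads. The comparison of pull-down with input asks which RNAs were recovered with the tagged protein, and the non-crosslinked pair gives the same measurement without irradiation. The design reads a transfected, tagged protein and not the cell's own, and the protein was captured after lysis, when contents of different compartments are in 1 solution. Nothing in the labels says whether libraries of 1 group came from separate cultures, so the p-values measure the spread between these libraries, which may be technical.

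Mitochondrial tRNAs lie between the protein and rRNA genes of the mitochondrial genome and are transcribed together with them as long precursors. RNase P cuts a precursor at the 5′ end of each tRNA, the nuclease Elac2 cuts at the 3′ end, and Trnt1 adds the terminal CCA. The finished tRNAs serve only the mitochondrial ribosome, whereas cytosolic tRNAs come from nuclear genes transcribed by RNA polymerase III. Each member is named here as in the files, by the letter of its amino acid (tRNA-Tv for valine). Of the 21 names, all matched a RefSeq gene of GRCm38.p6, the assembly also called mm10, and the genes are 59 to 75 nucleotides long. The tRNA of tyrosine was not analysed here. Reads of a mature tRNA, of its uncut precursor and, where strand was not counted, of the opposite strand all fall on the same feature and cannot be told apart.

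Levels are given in RPM, reads of a feature per 1000000 reads of the library, a scale on which 1 read was worth between 0.0543 and 0.0759. Library totals ranged from 13168593 to 18418166 reads, and single members held between 4 and 2370 reads. Annotated rRNA took 69.7% and 70.1% of the non-crosslinked input and pull-down and between 58.2% and 60.6% of the crosslinked libraries, which lowers RPM values of all other RNAs in the non-crosslinked pair. Of the 10 markers of pluripotent P19 cells, 9 had reads in all 3 inputs, with a summed level between 95.0 and 125 RPM. The other, Dppa4, was at 0 in both crosslinked inputs. Of 13 markers of neural, mesenchymal, endodermal and blood cells, 4 had reads in all 3 inputs, and the 13 had a summed level between 7.56 and 10.8 RPM. The 4 were Tubb3, Map2, Pax6 and Dcn. Map2 held 2.90 RPM in the non-crosslinked input and 5.27 and 4.58 RPM in the crosslinked inputs, above the P19 marker Sall4 at 1.34, 1.15 and 0.869 RPM. Afp, Sox17 and Hbb-bs were at 0 in all 3 inputs. In bulk libraries such as these, fewer cells of a type and less RNA per cell cannot be told apart, and the part of other cell types in the results was not tested.

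Mitochondrial tRNA was a small class, higher in both pull-downs than in both inputs with crosslinking and lower in the pull-down without it. The 21 features together took 0.0447% (95% Wilson interval 0.0437 to 0.0457) and 0.0288% (0.0280 to 0.0296) of all reads in the crosslinked inputs. They took 0.0638% (0.0626 to 0.0651) and 0.0626% (0.0614 to 0.0638) in the crosslinked pull-downs. Both pull-downs thus lay above both inputs, and they differed from each other far less than the inputs did. The mean share was 0.0632% ± 0.000900 (SD, n = 2) in the pull-downs and 0.0367% ± 0.0113 (SD, n = 2) in the inputs, a ratio of 1.72. The two-sided exact permutation test gave p = 0.333, the smallest value that 2 libraries against 2 can give. Without crosslinking the share was 0.0238% (0.0230 to 0.0246) in the input and 0.0161% (0.0155 to 0.0168) in the pull-down, a ratio of 0.677 with a 95% counting interval of 0.641 to 0.715. That lower ratio rested on tRNA-Tv: without it the non-crosslinked ratio was 1.01 and the crosslinked ratio 1.87. Per annotated read other than rRNA, a base that drops both rRNA and reads without annotation, the non-crosslinked and crosslinked ratios were 0.964 and 1.995. With rRNA alone taken out of the totals the non-crosslinked ratio was 0.685. Reads without annotation made up 7.58% of the non-crosslinked input and 13.99% of the non-crosslinked pull-down. The non-crosslinked pair had no replicates.

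**Figure D1:**
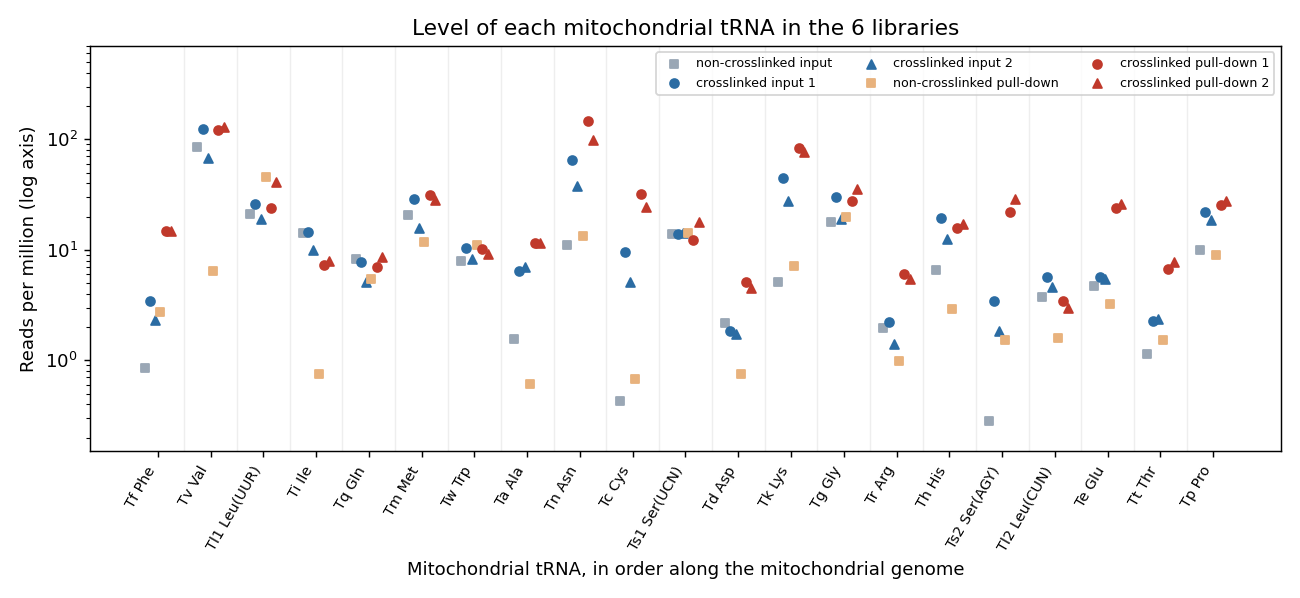
Level of each of the 21 mitochondrial tRNAs in RPM (log axis) against its order along the mitochondrial genome; each symbol is 1 library, coloured by crosslinking and by input or pull-down. tRNA-Tv, tRNA-Tn and tRNA-Tk reach the highest levels in the crosslinked libraries, and tRNA-Tv and tRNA-Ti drop in the non-crosslinked pull-down, to 6.38 and 0.759 RPM.

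The members did not contribute equally. Per nucleotide of gene length, valine tRNA (tRNA-Tv, chrM:1025-1093, between the genes of both mitochondrial rRNAs) stood highest in the crosslinked inputs, at 1.40 ± 0.582 RPM per nucleotide (SD, n = 2). Asparagine tRNA (tRNA-Tn, chrM:5089-5159) followed at 0.721 ± 0.266 and lysine tRNA (tRNA-Tk, chrM:7700-7764) at 0.557 ± 0.189 RPM per nucleotide. The mean ± SD ranges of neighbours in this order overlapped, although the order was the same in both inputs. Aspartate tRNA (tRNA-Td, chrM:6942-7011) had the lowest mean, 0.0255 RPM per nucleotide, not apart from the 0.0268 of arginine tRNA (tRNA-Tr), which was lower in input 2. In the crosslinked pull-downs tRNA-Tv, tRNA-Tn and tRNA-Tk held 1.83, 1.73 and 1.24 RPM per nucleotide, the same order by their means. The class was made up differently in the non-crosslinked pull-down. There tRNA-Tv made up 3.96% of its reads against 35.8% in the matching input, and leucine tRNA for UUR codons (tRNA-Tl1, chrM:2676-2750) 28.3% against 8.78%.

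Crosslinked pull-down over input was tested with edgeR's quasi-likelihood test over 39872 features, with Benjamini-Hochberg adjustment and calls at an adjusted p under 0.05. Of the 21 mitochondrial tRNAs, all of which were tested, 10 rose in the pull-down and none fell, with edgeR, DESeq2 and limma alike. Over all features 6.44% were called higher and 3.50% lower. The called members were the tRNAs of alanine, cysteine, aspartate, glutamate, phenylalanine, lysine, asparagine, arginine, serine (AGY codons) and threonine. Of the other 11, 9 had positive and 2 negative log2 ratios, and 3 of them (tRNA-Ti, tRNA-Tl2 and tRNA-Tp) had an unadjusted p under 0.05. The median log2 ratio was 0.64 over the members and -0.21 over all tested features. With TMM scaling, which set the median of all features to -0.01, that of the members was 0.86. Of 17 members with a mean of 5 RPM or more, 6 were called when only features of that level were tested (tRNA-Tn was no longer called, and tRNA-Td, tRNA-Tr and tRNA-Tt were not tested). With no filter on level beyond a count of at least 1 in any crosslinked library, 0 members were called, over 820291 features. Both pull-downs lay above both inputs for 11 members, where the same held for 10.8% of all tested features.

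The largest ratio belonged to the serine tRNA that reads AGY codons (tRNA-Ts2, chrM:11613-11671), the shortest member, which lacks the D arm found in other tRNAs. Its level was 3.44 and 1.85 RPM in the crosslinked inputs and 21.8 and 28.6 RPM in their pull-downs, against 0.283 and 1.52 RPM in the unirradiated input and pull-down. The crosslinked groups were far apart, and the non-crosslinked values came from 4 and 20 reads. The edgeR log2 ratio was 3.35 ± 0.31 (SE; adjusted p = 0.00101). Its neighbours on the genome behaved differently. Histidine tRNA (tRNA-Th, chrM:11546-11612), which ends directly before it, held 19.6 and 12.5 RPM in the crosslinked inputs, 15.9 and 17.1 RPM in the pull-downs, with 6.57 and 2.89 RPM in the unirradiated input and pull-down. Its crosslinked groups overlapped, with a log2 ratio of 0.13 ± 0.23 (edgeR adjusted p = 0.773). Leucine tRNA for CUN codons (tRNA-Tl2, chrM:11671-11741), whose annotation shares 1 base with tRNA-Ts2, held 5.73 and 4.56 RPM in the crosslinked inputs, 3.47 and 2.97 RPM in the pull-downs, with 3.75 and 1.59 RPM in the unirradiated input and pull-down. Both its pull-downs lay below both inputs, at a log2 ratio of -0.58 ± 0.18 that did not pass the test (edgeR adjusted p = 0.117).

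Phenylalanine tRNA (tRNA-Tf, chrM:1-68), the first gene of the mitochondrial reference sequence, was called and, like tRNA-Ts2 and tRNA-Tk, also had a non-crosslinked ratio with a counting interval above 1. It measured 3.44 and 2.33 RPM in the crosslinked inputs and 14.9 and 14.8 RPM in their pull-downs, with 0.848 and 2.73 RPM in the unirradiated input and pull-down. The 2 crosslinked pull-downs were nearly equal and both lay above all 4 other libraries. The log2 ratio was 2.46 ± 0.20 (edgeR adjusted p = 0.000663).

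Glutamate tRNA (tRNA-Te, chrM:14071-14139), encoded on the light strand beside mt-Nd6, had the smallest adjusted p of the class. Its inputs held 5.73 and 5.43 RPM with crosslinking and 4.66 RPM without, and its pull-downs 23.9 and 25.8 RPM with crosslinking and 3.27 RPM without. The 3 inputs and the non-crosslinked pull-down lay close together, and only the crosslinked pull-downs stood apart, with a log2 ratio of 2.25 ± 0.16 (edgeR adjusted p = 0.000444). mt-Nd6, a subunit of respiratory complex I and the only protein encoded on that strand, had a log2 ratio of 0.70 that was not called (edgeR adjusted p = 0.198).

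Cysteine tRNA (tRNA-Tc, chrM:5192-5257) held 9.51 and 5.10 RPM in the crosslinked inputs, 32.0 and 24.5 RPM in the pull-downs, with 0.424 and 0.683 RPM in the unirradiated input and pull-down. The groups of crosslinked libraries did not overlap, the log2 ratio was 2.05 ± 0.31 (edgeR adjusted p = 0.00875), and both non-crosslinked libraries were low, with 6 and 9 reads. Its neighbour asparagine tRNA (tRNA-Tn) held 64.5 and 37.8 RPM in the crosslinked inputs, 147 and 99.1 RPM in the pull-downs, with 11.0 and 13.4 RPM in the unirradiated input and pull-down. The spread within its groups was wide, the log2 ratio was 1.36 ± 0.31, and the adjusted p of 0.0460 with edgeR was just under the threshold; it was 0.0804 without crosslinked input 2, 0.0910 without crosslinked pull-down 1 and 0.0674 when only features with a mean of 5 RPM or more were tested.

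Alanine tRNA (tRNA-Ta, chrM:5018-5086), next to tRNA-Tn, had the smallest called change. It held 6.41 and 7.06 RPM in the crosslinked inputs and 11.5 RPM in each crosslinked pull-down, against 1.55 and 0.608 RPM in the unirradiated input and pull-down. The log2 ratio was 0.86 ± 0.15 (edgeR adjusted p = 0.0167; 0.142 without crosslinked input 1). The replicates agreed closely, and the 2 non-crosslinked libraries were lowest.

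Lysine tRNA (tRNA-Tk), between mt-Co2 and mt-Atp8, held 44.9 and 27.5 RPM in the crosslinked inputs and 83.8 and 77.2 RPM in their pull-downs, with 5.09 and 7.06 RPM in the unirradiated input and pull-down. Its crosslinked inputs, too, lay above both non-crosslinked libraries. The log2 ratio was 1.25 ± 0.26 (edgeR adjusted p = 0.0304; 0.0896 without crosslinked input 2).

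The remaining called members were scarce. Arginine tRNA (tRNA-Tr, chrM:9808-9875) held 2.23 and 1.41 RPM in the crosslinked inputs, 6.02 and 5.43 RPM in the pull-downs, with 1.98 and 0.987 RPM in the unirradiated input and pull-down (log2 ratio 1.74 ± 0.22, edgeR adjusted p = 0.00414). Threonine tRNA (tRNA-Tt, chrM:15289-15355) held 2.29 and 2.39 RPM in the crosslinked inputs, 6.64 and 7.77 RPM in the pull-downs, and 1.13 and 1.52 RPM without crosslinking (1.71 ± 0.17, edgeR adjusted p = 0.00155). For both, the crosslinked pull-downs stood above all other libraries. The same was true of tRNA-Td, which held 1.83 and 1.74 RPM in the crosslinked inputs, 5.09 and 4.55 RPM in the pull-downs, with 2.19 and 0.759 RPM in the unirradiated input and pull-down (1.52 ± 0.16, edgeR adjusted p = 0.00186). tRNA-Td is a direct neighbour of the serine tRNA for UCN codons (tRNA-Ts1, chrM:6870-6938). tRNA-Ts1 held 13.9 and 14.2 RPM in the crosslinked inputs, 12.2 and 17.9 RPM in the pull-downs, with 13.9 and 14.2 RPM in the unirradiated input and pull-down (0.20 ± 0.22, edgeR adjusted p = 0.644). Its crosslinked groups overlapped, and all 6 libraries lay close together.

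**Figure D2:**
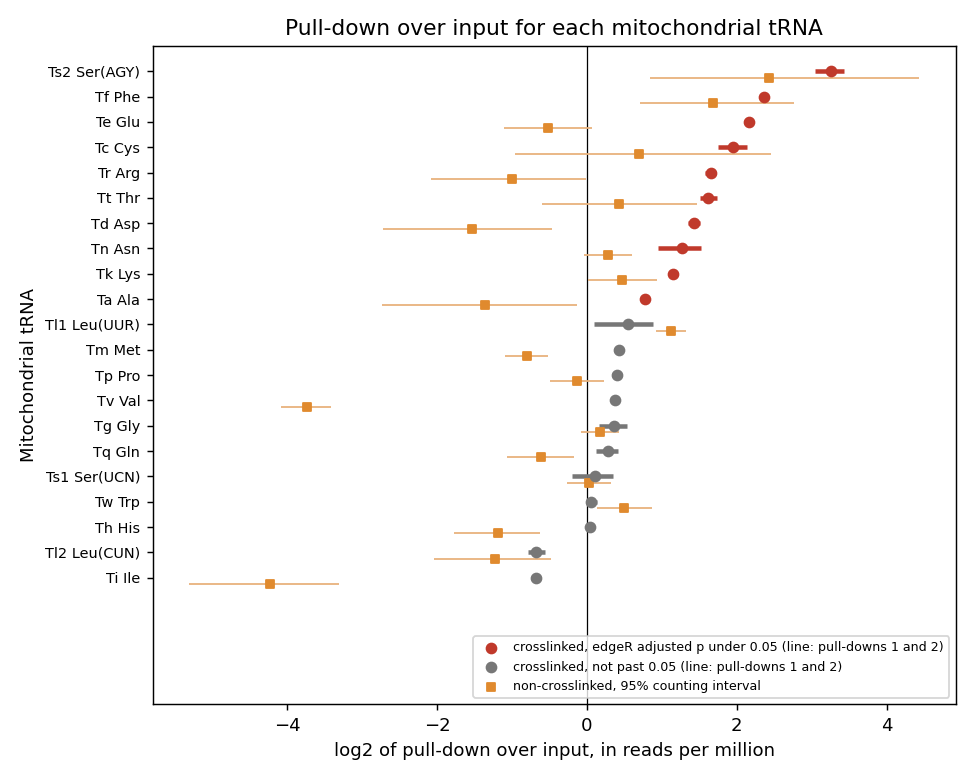
Pull-down over input for each mitochondrial tRNA as log2 of the ratio of RPM values; circles are the mean of the crosslinked libraries with a line from pull-down 1 to pull-down 2 (red where the edgeR adjusted p was under 0.05), squares the non-crosslinked pair with its 95% counting interval. The 10 red members lie right of 0 with both pull-downs, while the squares fall on both sides of 0.

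Several abundant members were not called. tRNA-Tv held 125 and 68.4 RPM in the crosslinked inputs, 122 and 130 RPM in their pull-downs, against 85.4 and 6.38 RPM in the unirradiated input and pull-down. Its crosslinked groups overlapped (log2 ratio 0.48 ± 0.29, edgeR adjusted p = 0.399), and the non-crosslinked pull-down was the only low library. tRNA-Tl1, which lies after mt-Rnr2, held 25.7 and 18.9 RPM in the crosslinked inputs, 23.8 and 41.2 RPM in the pull-downs, with 20.9 and 45.6 RPM in the unirradiated input and pull-down. Here the non-crosslinked pull-down was the highest library, and the crosslinked pull-downs differed by more than the inputs (0.64 ± 0.30, edgeR adjusted p = 0.279; 0.0402 without crosslinked pull-down 1).

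Glycine tRNA (tRNA-Tg, chrM:9391-9458) held 29.8 and 19.2 RPM in the crosslinked inputs, 27.4 and 35.6 RPM in the pull-downs, with 17.7 and 19.9 RPM in the unirradiated input and pull-down (0.46 ± 0.26, edgeR adjusted p = 0.356). Methionine tRNA (tRNA-Tm, chrM:3845-3913), which serves both initiation and elongation in mitochondria, held 28.6 and 15.7 RPM in the crosslinked inputs, 31.0 and 28.4 RPM in the pull-downs, and 20.6 and 11.8 RPM without crosslinking (0.52 ± 0.28, edgeR adjusted p = 0.343). Both had overlapping crosslinked groups. Proline tRNA (tRNA-Tp, chrM:15356-15422) held 21.9 and 18.5 RPM in the crosslinked inputs, 25.4 and 27.8 RPM in the pull-downs, and 9.89 and 9.04 RPM without crosslinking; its groups did not overlap, but the log2 ratio of 0.49 ± 0.17 did not pass the test (edgeR adjusted p = 0.153). The last members were at similar levels in all libraries. Glutamine tRNA (tRNA-Tq, chrM:3772-3842), whose annotation overlaps the end of the isoleucine tRNA gene, held 7.73 and 5.10 RPM in the crosslinked inputs, 7.01 and 8.53 RPM in the pull-downs, and 8.27 and 5.39 RPM without crosslinking. Tryptophan tRNA (tRNA-Tw, chrM:4950-5016) held 10.4 and 8.20 RPM in the crosslinked inputs, 10.2 and 9.16 RPM in the pull-downs, and 7.91 and 11.2 RPM without crosslinking. Their log2 ratios were 0.37 and 0.15 with overlapping groups (edgeR adjusted p = 0.401 and 0.644).

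Isoleucine tRNA (tRNA-Ti, chrM:3706-3774) had, with tRNA-Tl2, the lowest ratio. It held 14.4 and 9.88 RPM in the crosslinked inputs, 7.26 and 7.96 RPM in the pull-downs, with 14.2 and 0.759 RPM in the unirradiated input and pull-down. Both crosslinked pull-downs lay below both inputs, and the non-crosslinked pull-down, with 10 reads, was far below every other library. The crosslinked log2 ratio was -0.58 ± 0.21 and was not called (edgeR adjusted p = 0.171).

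Without crosslinking, the pull-down exceeded its input for 10 members and was below it for 11. The pull-down was below its input for 84.3% of all tested features. Per annotated read other than rRNA, it was below for 10 members and 69.3% of all tested features. The 95% counting interval of the ratio lay above 1 for 5 members and below 1 for 9. It was highest for tRNA-Ts2, at 5.37 (1.80 to 21.6), followed by tRNA-Tf, at 3.22 (1.64 to 6.81), and tRNA-Tl1, at 2.18 (1.89 to 2.51). For these members the pull-down held more than the input with no irradiation. It was lowest for tRNA-Ti, at 0.0535 (0.0253 to 0.100), and tRNA-Tv, at 0.0747 (0.0592 to 0.0933). Of the 10 members called with crosslinking, 6 were above 1 without it, 3 of them with an interval above 1 (tRNA-Ts2, tRNA-Tf and tRNA-Tk), and 4 were below. Those 4 were tRNA-Td at 0.347, tRNA-Ta at 0.391, tRNA-Tr at 0.499 and tRNA-Te at 0.700, whose interval of 0.465 to 1.04 included 1. There was no replicate check, and these intervals cover counting error only.

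The crosslinked ratio was above the non-crosslinked ratio with both pull-downs for 17 members, as it was for 71.2% of all tested features, and below it with both for tRNA-Tl1 and tRNA-Tw. The difference of the ratios was tested with edgeR over all 6 libraries, in which the lone non-crosslinked libraries were assumed to vary like the others. None of the 21 members passed, nor did any other feature (0.00%), and the smallest adjusted p of a member was 0.335. At an unadjusted p under 0.05 there were 8 members with a positive and 0 with a negative difference, among 4622 and 809 of all features. DESeq2 called 1 member higher, tRNA-Tv, among 8 features higher (0.0201%) and 147 lower. edgeR without crosslinked input 1 called 5 members higher, among 27 features higher (0.0677%) and 121 lower. The largest differences on the log2 scale were 4.11 ± 0.55 (SE) for tRNA-Tv and 3.53 ± 0.49 for tRNA-Ti. Neither was called in the crosslinked comparison, and both had the lowest non-crosslinked ratios. Those of tRNA-Td, tRNA-Te, tRNA-Tr and tRNA-Ta were 2.94 ± 0.36, 2.66 ± 0.32, 2.64 ± 0.49 and 2.10 ± 0.43, and these members were called higher with crosslinking. The median difference was 0.97 over the members and 0.56 over all features. With TMM scaling these became 0.40 and -0.01.

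Crosslinking also went with a different level in the inputs. Both crosslinked inputs lay above the non-crosslinked input for 13 of 21 members, where 86.5% of all tested features did so. Per annotated read other than rRNA, 9 members and 67.6% of all tested features did so. The input of tRNA-Tc was 17.2 times higher with crosslinking, that of tRNA-Ts2 9.34 times, of tRNA-Tk 7.12 times, of tRNA-Tn 4.64 times and of tRNA-Ta 4.33 times. These members were also called in the pull-down. In the pull-downs, both crosslinked libraries lay above the non-crosslinked one for 18 of 21 members, against 86.6% of all tested features, and per annotated read other than rRNA for 16 members, against 69.9%. The highest ratios of crosslinked to non-crosslinked pull-down were 41.4 for tRNA-Tc, 19.8 for tRNA-Tv, 18.96 for tRNA-Ta and 16.6 for tRNA-Ts2, which became 23.6, 11.3, 10.8 and 9.49 per annotated read other than rRNA. The lowest were 0.713 for tRNA-Tl1 and 0.866 for tRNA-Tw, which became 0.409 and 0.494 on that base. The part of the differing inputs in the pull-down ratios was not tested.

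The members were also read by their place on the genome. Of the 7 measured tRNAs encoded on the light strand 4 rose, and of the 14 on the heavy strand 6 rose. The summed level of the light-strand group was 2.13 times its input with crosslinking and 0.937 without. For the heavy-strand group the values were 1.54 and 0.608, and 1.69 and 1.05 without tRNA-Tv. In the cluster of tryptophan, alanine, asparagine and cysteine tRNAs 3 of 4 measured members rose, and its summed ratio was 2.32 with and 1.24 without crosslinking. In the cluster of isoleucine, glutamine and methionine tRNAs none of 3 rose, at 1.11 and 0.416. Of the 3 tRNAs beside the rRNA genes, tRNA-Tf was called higher at a log2 ratio of 2.46, and tRNA-Tv and tRNA-Tl1 were not called at 0.48 and 0.64. The differences among these 3 were not tested. Of the 3 measured tRNAs whose anticodon carries queuosine, those of aspartate and asparagine rose and that of histidine was not called. Differences between the groups by place or queuosine were not tested.

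The edgeR calls among the other RNAs of the same genome were in the other direction. Of 15 mitochondrial mRNAs and rRNAs, none rose and 6 fell in the crosslinked pull-downs (edgeR), with a median log2 ratio of -0.79, where 3.50% of all features were called lower and their median was -0.21. The 6 were mt-Co1 and mt-Co3, subunits of cytochrome c oxidase, at -1.09 and -1.28, mt-Cytb of complex III at -0.86, mt-Nd3 and mt-Nd4l of complex I at -1.11 and -0.86, and the small rRNA mt-Rnr1 at -1.14. Those of mt-Cytb and mt-Rnr1 were close to the threshold (edgeR adjusted p = 0.0463 and 0.0447). The count that fell was 3 with TMM scaling, 3 with the replicate block, 1 with DESeq2 (mt-Co3), 8 with limma and 0 with no filter on level beyond 1 read. With 1 library left out it was 2 to 9, lowest without crosslinked pull-down 2 and highest without crosslinked pull-down 1. In that range mt-Nd6 was called higher without pull-down 2 and mt-Rnr2 without crosslinked input 2, and mt-Rnr2 also at a minimum of 5 RPM. At an unadjusted p under 0.05, 12 were lower and 2 higher, mt-Nd6 and mt-Rnr2. The large rRNA mt-Rnr2 had a log2 ratio of 0.52 that was not called (edgeR adjusted p = 0.173). For mitochondrial mRNA as a class, pull-down over input was 0.524 with crosslinking and 0.425 in the unirradiated pair. For each read of mitochondrial mRNA the crosslinked inputs held 0.292 and 0.178 reads of mitochondrial tRNA, and the crosslinked pull-downs 0.675 and 0.892. Without crosslinking the values were 0.0989 in the input and 0.158 in the pull-down. Both crosslinked pull-downs were thus above every other library in the ratio of tRNA to mRNA from 1 genome. Mitochondrial rRNA as a class had a crosslinked ratio of 1.02. For each of its reads the crosslinked inputs held 0.0433 and 0.0254 reads of mitochondrial tRNA, and the pull-downs 0.0539 and 0.0605. Without crosslinking these values went the other way, at 0.0196 in the input and 0.0156 in the pull-down. Of 16 nuclear genes that act in mitochondrial transcription, RNA processing or tRNA modification, read over their pre-mRNA features, 3 were abundant enough to be tested (Elac2, Trnt1 and Lrpprc). The pre-mRNA feature of Lrpprc, which stabilises mitochondrial mRNAs, fell by 0.71 on the log2 scale, just under the threshold (edgeR adjusted p = 0.0460). Trnt1 and Elac2 had log2 ratios of -0.80 and -0.62 and were not called (edgeR adjusted p = 0.0958 and 0.115).

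**Figure D3:**
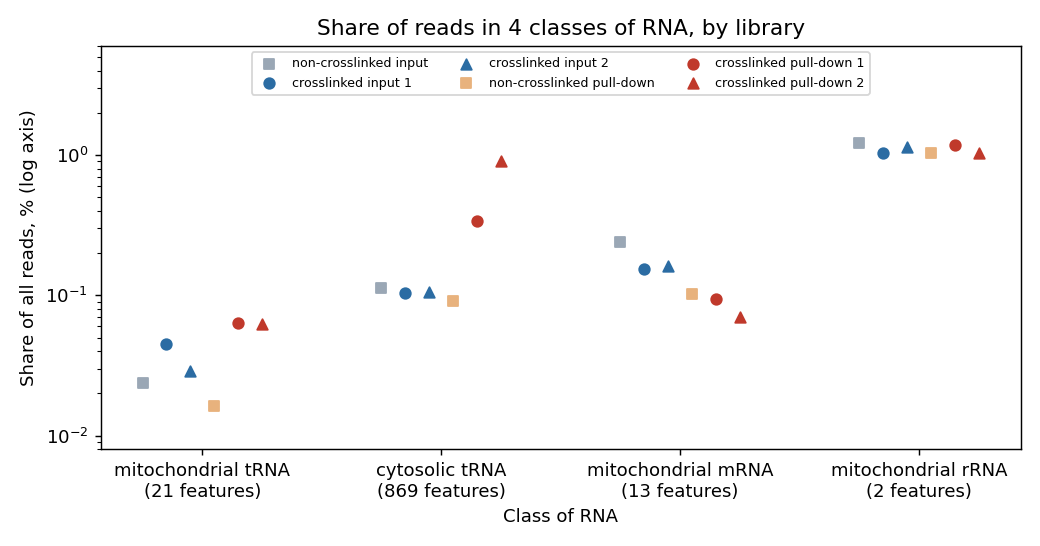
Share of all reads (%, log axis) of mitochondrial tRNA, cytosolic tRNA, mitochondrial mRNA and mitochondrial rRNA; each symbol is 1 library. Mitochondrial tRNA lies at 0.0638% and 0.0626% in the crosslinked pull-downs, which nearly coincide, whereas cytosolic tRNA lies at 0.338% and 0.903%.

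Cytosolic tRNA had a larger crosslinked ratio than mitochondrial tRNA, with a wide spread between the pull-downs. With crosslinking it took 0.105% of reads in each input and 0.338% and 0.903% in the pull-downs, a ratio of 5.91. In the non-crosslinked pair it took 0.114% of the input and 0.0915% of the pull-down, a ratio of 0.805. That ratio was 0.815 with rRNA alone left out of the totals and 1.15, in the other direction, per annotated read other than rRNA. It rested on the tRNAs of alanine, aspartate and glutamate, the 3 of 19 amino acids whose summed cytosolic tRNAs had a ratio below 1. For the other 16 it was 1.29 to 51.2. Without those 3, a choice made after seeing the data that largely sets a value above 1, the class had a ratio of 2.51 (counting interval 2.39 to 2.64). The crosslinked ratio was then 16.4 (10.4 with pull-down 1 and 22.4 with pull-down 2). Among 260 cytosolic tRNA features tested with edgeR, 233 were called higher, with a median log2 ratio of 3.92. Many of them were near-identical copies whose reads the authors' counting split. Not every cytosolic tRNA feature reached the mean of 1 RPM over the 4 crosslinked libraries that the test required. A feature low in the inputs could reach it through the pull-downs alone, which favours high ratios among the tested features. The count and the median thus describe the 260 tested features only. They cannot be set against those of the 21 mitochondrial tRNAs, all of which were tested. The classes also differed in how the pull-downs related. Pull-down 2 held 2.68 times the cytosolic tRNA share of pull-down 1 but 0.980 times the mitochondrial tRNA share.

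Within each library, the ratio of cytosolic to mitochondrial tRNA reads needs no scaling between libraries. With crosslinking it was 2.34 and 3.65 in the inputs and 5.29 and 14.4 in the pull-downs, and without it 4.77 and 5.67. Both crosslinked pull-downs lay above both crosslinked inputs, but pull-down 1 was below the non-crosslinked pull-down. On the log2 scale the mean was 3.13 ± 1.02 (SD, n = 2) in the pull-downs and 1.55 ± 0.45 (SD, n = 2) in the inputs, a difference of 1.58 (two-sided exact permutation test, p = 0.333, the smallest possible). The difference was 0.85 without pull-down 2 and 2.30 without pull-down 1, and the non-crosslinked difference was 0.25.

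The contrast was also seen amino acid by amino acid, over the 19 amino acids with both kinds of tRNA. The summed cytosolic tRNAs had the higher crosslinked ratio for 18 amino acids, and for 17 with each pull-down taken alone. By mean level, the mitochondrial tRNA was the more abundant for 13 amino acids in the crosslinked inputs and for 5 in the pull-downs. Some cytosolic inputs were low, with means of 0.919 RPM for asparagine, 1.89 for glutamine and 2.16 for cysteine, so these ratios rest on few input reads. Glutamine stood furthest apart. Its cytosolic tRNAs held 2.75 and 1.03 RPM in the crosslinked inputs and 261 and 613 RPM in their pull-downs, a ratio of 231 (138 with pull-down 1 and 324 with pull-down 2), where mitochondrial tRNA-Tq had a ratio of 1.21. For histidine the cytosolic ratio was 130 (86.4 and 173 with pull-downs 1 and 2) and the mitochondrial ratio 1.03. For isoleucine they were 31.0 (18.8 and 43.1) and 0.626. Without crosslinking the cytosolic ratios of these amino acids were also above 1, at 7.65 for glutamine, 51.2 for histidine, with a counting interval of 23.2 to 141, and 3.56 for isoleucine. Glutamate was the exception, with 4.46 for tRNA-Te (4.29 and 4.63 with pull-downs 1 and 2) and 2.50 for the cytosolic tRNAs (1.41 and 3.60). The cytosolic tRNAs of glutamate were abundant already in the inputs at 290.2 and 233 RPM. Aspartate, whose cytosolic tRNAs were also abundant in the inputs, went both ways: its cytosolic ratio was 1.95 in pull-down 1 and 6.43 in pull-down 2, and that of tRNA-Td 2.85 and 2.55. Without crosslinking the cytosolic ratio was the higher for 16 amino acids, the exceptions being glutamate, phenylalanine and threonine. These are descriptions with no test, because cytosolic tRNAs of 1 amino acid share sequences and each group has few libraries.

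**Figure D4:**
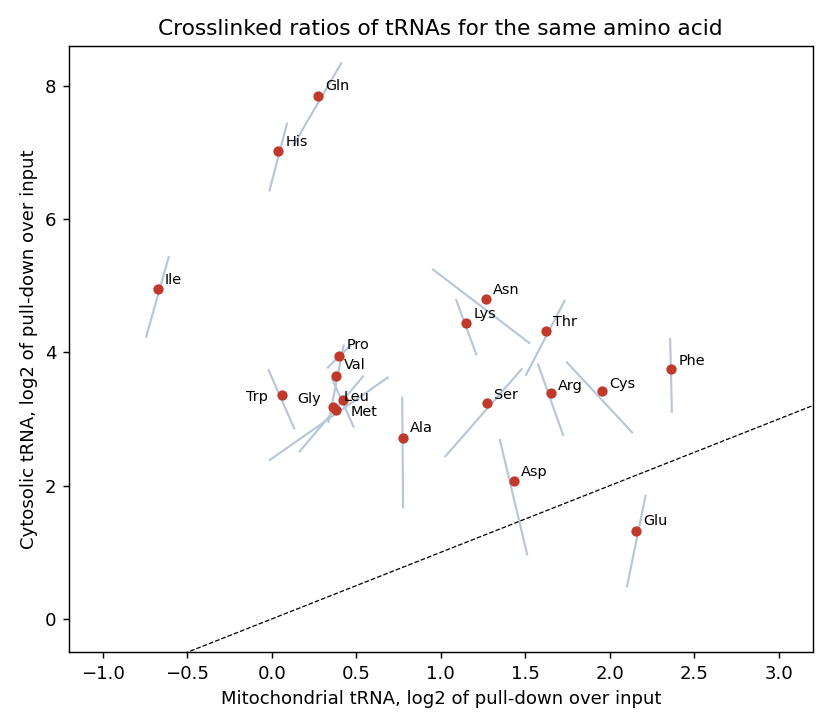
Pull-down over input for the cytosolic tRNAs of an amino acid against that of its mitochondrial tRNA, with crosslinking (log axes); points are means, grey lines join pull-downs 1 and 2, and the dashed line marks equal ratios. All amino acids but glutamate lie on the cytosolic side of the line.

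The authors' deposited table gives 1 enrichment ratio for each feature, with no statement of how libraries were combined. In it all 21 mitochondrial tRNAs had a value, with a median of 3.11, and 18 were above 1. The median over all 216085 features of the authors' deposited table was 1.37 and that of cytosolic tRNA 20.9. The share of all features above 1 was not counted, but with a median of 1.37 most were, so the count of 18 does not by itself set the class apart. The highest member of the authors' deposited table was tRNA-Ts2 at 16.2, also the highest in the crosslinked ratio of RPM values at 9.53, and the lowest was tRNA-Tw at 0.623. tRNA-Tl1 and tRNA-Tl2 were below 1 there too, at 0.721 and 0.884, although tRNA-Tl1 had a crosslinked RPM ratio of 1.46. The reverse held for tRNA-Ti, which was at 1.39 in the authors' deposited table and had a crosslinked RPM ratio of 0.626.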

How the data were processed

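Per the submitters' processing notes, bcl2fastq 2.19, STAR 2.5.2b and bedtools 2.29.0 were used with the mm10 build; the annotation, strand in counting and removal of PCR duplicates are not given in the sources used here. The authors deposited an expected count per feature and library, in which reads of several features were split; all 21 members had whole counts. The authors' deposited RPM values are those counts scaled to the total reads of the library. The authors' deposited ratio per feature has no stated formula.

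Counts were rounded and tested with edgeR 4.0.16 (R 4.3.3, quasi-likelihood) over the features whose mean over the 4 crosslinked libraries reached 1 RPM. Library sizes were annotated reads, leaving out the 6.99% to 14.4% without annotation. Non-crosslinked ratios are of RPM, with no test. Intervals cover counting error only, since PCR copies are not independent molecules. Alternatives used DESeq2 1.42.0, limma 3.58.1, other scalings and filters, and left-out libraries. All 21 members are named; all 6 values are given for the 8 most abundant, the 3 highest and 3 lowest log2 ratios, and each called one. The class was taken up, and the lists chosen, with earlier results of these data known; its members are set by the annotation. The likeness rule of the plan was not used, since no single member was the subject. No sequences of these tRNAs were used here.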

Additional observations from a re-analysis of the deposited data

Results flagged for a closer look

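Some groups of RNA moved in opposite directions with and without crosslinking: both crosslinked pull-downs lay above both inputs, and the single non-crosslinked pull-down lay below its input. The values are log2 ratios of pull-down over input in RPM, crosslinked first. For mitochondrial tRNA as a class they were 0.78 and -0.56, and for cytosolic tRNA 2.56 and -0.31. The non-crosslinked ratios were 0.685 and 0.815 with rRNA alone left out of the totals. Per annotated read other than rRNA, which also drops reads without annotation, they were 0.964 and 1.15, so that of cytosolic tRNA turned. Without the tRNAs of alanine, aspartate and glutamate the non-crosslinked ratio of cytosolic tRNA was 2.51. These were the 3 of 19 amino acids with a ratio below 1, so a value above 1 was largely set by that choice. Within the class they were 1.09 and -0.09 for the light-strand group and 0.63 and -0.72 for the heavy-strand group. The non-crosslinked ratio of the light-strand group, 0.937, had a counting interval of 0.840 to 1.05 and became 1.34 per annotated read other than rRNA, and that of the heavy-strand group was 1.05 without tRNA-Tv. The tRNAs beside the rRNA genes had 0.51 and -0.97, the cluster of histidine, serine and leucine tRNAs 0.91 and -0.82, and the queuosine-type tRNAs 1.07 and -0.21. Beside the rRNA genes only tRNA-Tv, at 0.0747, was below 1 without crosslinking, with tRNA-Tf at 3.22 and tRNA-Tl1 at 2.18. In the histidine, serine and leucine cluster only tRNA-Ts2 rose with crosslinking, with a ratio of 9.53 against 1.03 and 0.626. The non-crosslinked ratio of the queuosine-type tRNAs had an interval of 0.721 to 1.03 and became 1.23 per annotated read other than rRNA. For these groups the difference was not tested.

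Of single members, the same opposite directions were seen for 5. The share of all tested features that showed both directions at once was not counted. Taken singly, 10.8% had both crosslinked pull-downs above both inputs, and 84.3% had the non-crosslinked pull-down below its input. The log2 ratios of the members were 0.77 and -1.36 for tRNA-Ta, 1.43 and -1.53 for tRNA-Td, and 1.65 and -1.003 for tRNA-Tr. They were 2.16 and -0.51 for tRNA-Te, and 0.40 and -0.13 for tRNA-Tp. The edgeR test of the difference passed for none of them with all libraries, and for tRNA-Td, tRNA-Tr and tRNA-Te without crosslinked input 1. The non-crosslinked counting intervals of tRNA-Te and tRNA-Tp included equality, and per annotated read other than rRNA their ratios were 0.997 and 1.30.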

How the results depend on the processing

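In the crosslinked comparison the count of 10 members called was the same with TMM scaling, DESeq2, limma, unannotated reads added or rRNA left out of library sizes, identical features counted once, a minimum of 0.5 RPM, all 6 libraries in the fit, and mitochondrial reads as library size, the last chosen after seeing the data. It was 10 under the replicate block too. The labels do not say what the replicate numbers mark, and deviations of same-numbered libraries correlated at r = 0.11 over 39872 features and 0.25 over the 21 members. At a minimum of 5 RPM 6 of 17 tested members were called. With no filter on level beyond a count of at least 1 in any library, over 820291 features, the count was 0 and no other feature was called. In that edgeR fit 11 members were higher at an unadjusted p under 0.05. Leaving out 1 library gave 8 to 10. The log2 ratio turned for tRNA-Ts1 (-0.12 to 0.46 over left-out libraries) and tRNA-Th (-0.14 to 0.48). The difference of ratios passed for 1 member with DESeq2 (tRNA-Tv), 2 with mitochondrial reads as library size (also tRNA-Ti) and 0 to 5 with 1 library left out; it was 5 without crosslinked input 1. Over all features these settings called 8 higher and 147 lower, 4 and 75, and, without crosslinked input 1, 27 and 121. That difference turned negative for tRNA-Ts1 with TMM (-0.51), rRNA left out (-0.23), DESeq2 (-0.58) and mitochondrial reads (-0.24), and ranged from -0.26 to 0.33 over left-out libraries. For tRNA-Tg these values were -0.38, -0.10, -0.45 and -0.14, and the range -0.087 to 0.52. With TMM and DESeq2 it was -0.029 and -0.11 for tRNA-Tl2 and -0.053 and -0.13 for tRNA-Tp. The non-crosslinked log2 ratio of the class was -0.46 with annotated reads only, and, both chosen after seeing the data, -0.05 with annotated reads without rRNA and 0.019 without tRNA-Tv. That of cytosolic tRNA was -0.31 and became 1.33 without alanine, aspartate and glutamate tRNAs, also chosen after seeing the data, a choice that largely sets a positive value. The cause of these changes was not tested. Few reads limit the scarce members without crosslinking.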
